A study of Mus musculus with 8 samples.

Results

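Replication-dependent histone genes encode the linker histone H1 and the core histones H2A, H2B, H3 and H4 that package new DNA. The members described here are the protein-coding mouse genes of GENCODE M21 whose symbols begin with Hist1h, Hist2h, Hist3h or Hist4h. There are 67 of them among 21891 protein-coding genes with exon IDs in the deposited counts: 6 H1, 18 H2A, 18 H2B, 12 H3 and 13 H4 genes. Most lie in the large cluster on chromosome 13, which holds 54 members. Chromosome 3 holds 10, chromosome 11 holds 2 and chromosome 6 holds 1.

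RNA was measured in fully grown mouse oocytes at the germinal vesicle stage, that is, arrested before the first meiotic division. The 4 control libraries came from Kiaa1429F/+;Zp3-Cre females, and the 4 conditional knockout (cKO) libraries from Kiaa1429F/F;Zp3-Cre females. All mice were C57BL/6, 20 days old (the protocol text says 3 weeks), given 5 IU of PMSG, a gonadotropin that stimulates follicle growth, 48 h before collection. Each library pooled about 20 oocytes of at least 70 µm, kept in medium with milrinone, which holds them at this stage. Zp3-Cre acts in growing oocytes, so both groups carry the Cre and the controls keep 1 unfloxed allele. KIAA1429, also called VIRMA, is a subunit of the complex that places N6-methyladenosine on RNA. Its gene, listed as Virma, stood at 57.1 to 82.0 CPM, that is, counts scaled to the same library size, in the control libraries and at 17.0 to 24.2 CPM in the cKO libraries (log2 fold change -1.81, SE 0.18, adjusted p 1.02e-06).

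In dividing cells these genes are transcribed mainly in S phase, and their mRNAs end just after a short stem-loop in place of a poly(A) tail. The stem-loop binding protein SLBP and the U7 small nuclear RNA guide that cleavage. A growing oocyte does not replicate its DNA, but it stores histones for the embryo, and oocytes and differentiated cells can also make polyadenylated transcripts of some of these genes. The libraries were primed with oligo-dT, so only polyadenylated forms, or chance priming on A-rich stretches, could be counted. A low value here is no measure of the stem-loop-ended mRNA.

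The stem-loops below belong to members that went in opposite directions and are shown because the class-defining element has the same letters in both. Annotated transcripts of members were searched from the stop codon to their end, on the transcript's strand, for the 16-base pattern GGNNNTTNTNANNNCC. Other coding transcripts were searched over the first 150 bases after the stop codon. Every match in a member also lay within 150 bases of the stop codon. The sequences are those of the GENCODE M21 transcripts on GRCm38, 5′ to 3′, with the 16 bases in capitals and 5 bases on each side.
Hist1h1e, chr13:23621782-23621797, minus strand: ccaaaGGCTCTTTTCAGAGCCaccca
Hist1h2ac, chr13:23683477-23683492, minus strand: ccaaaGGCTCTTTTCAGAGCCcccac
Hist1h2bh, chr13:23542928-23542943, minus strand: ccaaaGGCTCTTTTCAGAGCCactca
Hist1h3c, chr13:23745047-23745062, minus strand: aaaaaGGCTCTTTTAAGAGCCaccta
Hist1h3f, chr13:23544932-23544947, plus strand: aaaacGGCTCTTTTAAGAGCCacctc
Hist1h4d, chr13:23581950-23581965, plus strand: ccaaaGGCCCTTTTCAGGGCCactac
Hist1h4c, chr13:23698089-23698104, minus strand: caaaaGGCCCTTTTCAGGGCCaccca
Hist1h1e, Hist1h3c and Hist1h4d were higher in cKO oocytes, whereas Hist1h2ac, Hist1h2bh, Hist1h3f and Hist1h4c were lower, as described below.

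The motif was found in 46 members. Of the 48 members whose annotation reaches at least 60 bases past the stop codon, 44 held it, against 109 of 42268 other coding transcripts (0.258%). Members were counted per gene and the others per transcript. The commonest form, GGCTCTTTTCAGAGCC, occurred in 26 members of the H1, H2A, H2B and H3 classes. The form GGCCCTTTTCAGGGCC occurred in 7 members, all H4. Among the 11 tested members with the commonest form 2 were higher, 4 were lower and 5 were not called, and among the 4 tested members with the H4 form these numbers were 1, 1 and 2. In 26 members the annotated transcript runs more than 50 bases past the motif, and in 14 of these the poly(A) signal AATAAA lies in that stretch. Of those 26 members 17 had enough counts to be tested, 5 of them higher and 8 lower, where 27.0% of all genes tested were higher and 27.9% lower. Of the 20 members whose annotation ends within 50 bases of the motif, 6 were tested, with none higher and 2 lower. The difference between the 2 kinds of annotation was not tested.

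Counts per library on exon IDs ran from 4247471 to 4790038 in controls and from 4399190 to 5064008 in cKO. Reads that met more than 1 exon ID were set apart as ambiguous by the authors' counting, 72.9% to 75.4% of reads in controls and 78.8% to 80.4% in cKO, and reads outside exon IDs were 9.86% to 12.0% and 5.01% to 6.19%. A member was therefore counted mainly on bases that no other exon ID covers, called its own bases here. The part of that difference in the results was not tested. Markers of cumulus and granulosa cells, which surround the oocyte, summed to 271 to 598 CPM in controls and 480 to 973 CPM in cKO, with 4 of the 11 tested higher, 3 lower and none of the 16 at 0. Markers of theca, stroma, vessel, immune and blood cells summed to 15.8 to 21.3 and 17.4 to 27.9 CPM, with 2 of 5 tested higher, 1 lower and Ptprc, Adgre1, Cd74, Hba-a1 and Hbb-bs at 0 in all libraries. Among them C1qa, a macrophage gene, was at 0.177 ± 0.217 CPM in controls and 7.0 ± 1.64 CPM in cKO (SD, n = 4). Its log2 fold change was 5.07 (adjusted p 1.40e-06). Cd68, another macrophage gene, had 4 and 13 counts and was not tested. Lyz2, expressed in macrophages too, had 6 and 5 counts and was not tested, and Adgre1, also a macrophage gene, was among those at 0. Oocyte markers summed to 32393 to 44947 CPM in controls and 16643 to 20218 CPM in cKO, with 4 of 10 lower, and all 10 were detected. Bmp15 and Gdf9 carried that sum, with 29108 to 40802 CPM in controls and 13879 to 17120 CPM in cKO, and the other 8 summed to 3162 to 4146 and 2764 to 3099 CPM. Beside these marker counts, 27.0% of all genes tested were higher and 27.9% lower. The part of these cell types in the histone values was not tested. In pooled oocytes, fewer cells of a type and less RNA per cell cannot be told apart.

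Of the 67 members, 58 had at least 1 count and 9 had none, 5 of which have no bases of their own. The filter on low counts left 27 for the test across all 10673 genes. Among these 27, 6 were higher in cKO oocytes, 12 were lower and 9 did not pass the threshold of adjusted p 0.05. Over all genes tested 27.0% were higher and 27.9% lower, and over the 7991 protein-coding genes tested 30.4% and 23.5%. The median log2 fold change was -0.33 over the 27 members, 0.02 over all genes and 0.10 over protein-coding genes. In 4 members every cKO library lay above every control library and in 11 every cKO library lay below. The same held for 25.0% and 25.1% of all genes tested.

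The filter admitted some members through 1 group alone. Hist1h1e, Hist1h3c, Hist2h4, Hist1h3a and Hist2h3c2 passed only through the cKO libraries, and Hist3h2a and Hist1h3e only through the controls. Among the 19 members at or above the filter's cutoff in both groups, 3 were higher, 11 were lower and 5 were not called. Over all genes tested, whichever group admitted them, 27.0% were higher and 27.9% lower.

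**Figure D1:**
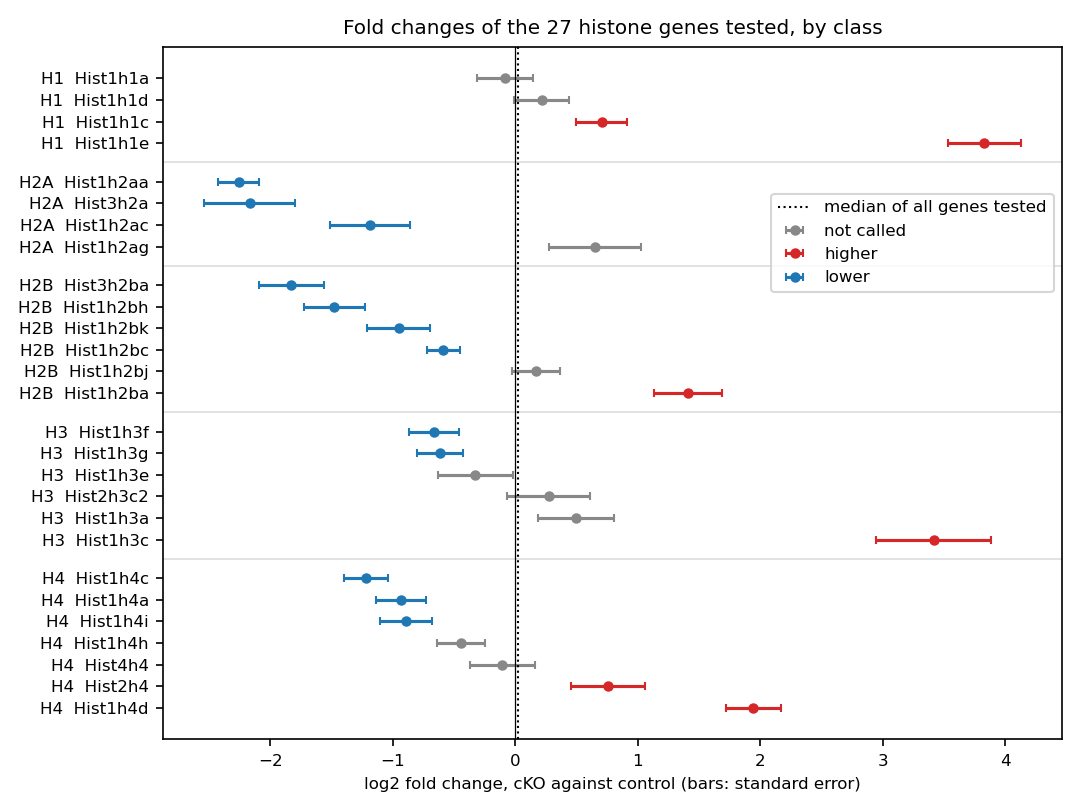
Log2 fold change (cKO against control, x axis) of the 27 tested members, grouped by histone class, with bars for 1 standard error. Points are coloured by call (6 higher, 12 lower, 9 not called) and the dotted line is the median of all genes tested, 0.02. The H1 genes called lie to the right, the H2A genes called to the left.

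The linker histones bind the DNA entering and leaving the nucleosome. Of their 4 tested members 2 were higher and none was lower, beside 27.0% and 27.9% of all genes tested. Hist1h1e, the gene of H1.4, passed the filter only through the cKO libraries and showed the largest fold of the 27 members. It was at 0.444, 1.44, 1.32 and 0.750 CPM in the controls and at 14.0, 13.8, 15.3 and 13.9 CPM in the cKO libraries, from 16 and 273 counts in all. The 2 groups were far apart, and the cKO libraries differed little among themselves. The log2 fold change was 3.83 (adjusted p 1.22e-07, SE 0.30). The gene lies at chr13:23620629-23622558 on the minus strand of GRCm38 and consists of 1 exon, of which 1434 bases are its own. The rest overlaps Hist1h2be and the pseudogene Gm11398, and without strand their reads cannot be assigned on shared bases. Hist1h2be itself had 16 counts in the controls and 7 in cKO.

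Hist1h1c, the gene of H1.2, was at 18.4, 27.5, 21.6 and 15.0 CPM in controls and at 34.1, 25.5, 33.7 and 41.0 CPM in cKO. Control replicate 2 lay above cKO replicate 2, so the groups overlapped, and the gene rose by 0.70 on the log2 scale (adjusted p 0.0105, SE 0.21). Hist1h1a, the gene of H1.1, was at 16.9, 14.6, 29.7 and 20.3 CPM in controls and 21.9, 20.2, 15.0 and 19.3 CPM in cKO, with a log2 fold change of -0.09 (SE 0.23). Hist1h1d, the gene of H1.3, gave 0.22 (SE 0.22). Neither passed the test. The summed level of the 6 H1 genes was 52.1 ± 8.76 CPM in controls and 79.6 ± 8.26 CPM in cKO (SD, n = 4), a ratio of 1.53, and the 4 cKO sums, from 72.4 to 87.8, all lay above the 4 control sums, from 44.8 to 63.1. Without Hist1h1e the sums were 44.4 to 61.8 CPM in controls and 57.2 to 74.0 CPM in cKO, and the groups overlapped, with a ratio of 1.28. That overlap depended on the scaling. On CPM of the unscaled library sizes these sums were 41.9 to 55.0 in controls and 60.6 to 78.2 in cKO, without overlap, with a ratio of 1.43.

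Of the 4 H2A genes tested, 3 were lower and none was higher, beside 27.9% and 27.0% of all genes tested. Each of the 4 has an exon that partly overlaps another annotated gene, so none could be tested when such exons were left out, and neither could Hist1h1e, which left 1 H1 gene higher. Hist1h2aa encodes TH2A, an H2A form found in testis and oocytes. It was at 71.6, 54.6, 59.7 and 68.3 CPM in controls and at 14.4, 12.7, 11.4 and 14.4 CPM in cKO. Every cKO library was far below every control library, and the gene fell by 2.26 in log2 (SE 0.17, adjusted p 8.28e-08, 1051 against 255 counts). Hist3h2a, at chr11:58954685-58956830, was at 3.77, 5.27, 3.42 and 4.75 CPM in controls and 1.33, 0.637, 0.430 and 1.31 CPM in cKO. The groups did not overlap, and it fell by 2.17 (SE 0.37, adjusted p 0.000159). Hist3h2a passed the filter only through the controls. Part of its exon overlaps Trim17 and Gm44313, so its reads may be split between these genes. Hist1h2aa has 261 bases of its own, the rest being shared with Gm44344, and Hist1h2ac has 2236, the rest being shared with Gm24991 and Gm44350.

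Hist1h2ac was at 9.54, 8.14, 6.31 and 5.50 CPM in controls and 2.44, 2.34, 2.36 and 5.62 CPM in cKO. Replicate 4 of the cKO stood apart from the other cKO libraries and reached into the control range. The gene fell by 1.19 (SE 0.32, adjusted p 0.00588). Hist1h2ag was the 1 tested H2A gene not called, with a log2 fold change of 0.65 (SE 0.37). The summed H2A level was 79.0 ± 9.44 CPM in controls and 23.5 ± 4.31 CPM in cKO (SD, n = 4), a ratio of 0.298, the lowest of the 5 classes. Hist1h2aa alone made up 63.6 ± 7.81 CPM of the control sum and 13.2 ± 1.46 CPM of the cKO sum. The class ratio and its rank therefore rest largely on this gene.

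Hist1h2bc, an H2B gene, dominated the counted level of the family. It supplied 60.2% ± 1.40 of the summed member level in controls and 57.6% ± 1.74 in cKO (SD, n = 4). Stem-loop-ended mRNA is not counted, so this is no ranking of total mRNA. The coding sequence of Hist1h2bc is 99.0% identical to that of Hist1h2bj, so reads within it may not be assigned to 1 copy. The level of Hist1h2bc was 815.8, 658.3, 619.7 and 705.7 CPM in controls and 464.4, 448.1, 395.7 and 551.8 CPM in cKO. No cKO library reached the control range, and the gene fell by 0.59 in log2 (SE 0.13, adjusted p 0.00170). Its annotated spliced transcript has an exon of 423 bases that holds the coding sequence (chr13:23684199-23684621) and a distal exon of 733 bases (chr13:23692176-23692908), and the stem-loop motif was not found in it.

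The coding exon of Hist1h2bc was at 565 ± 65.7 CPM in controls and 390 ± 54.7 CPM in cKO (SD, n = 4) on the exon-level scale, and fell by 0.53 (adjusted p 0.00350). The distal exon was at 135 ± 21.8 and 84.6 ± 13.9 CPM, and fell by 0.68 (adjusted p 0.00233). The distal exon's share of the gene's exon CPM was 19.3% ± 2.37 in controls and 17.8% ± 0.596 in cKO, and a test of exon usage did not separate the groups (adjusted p 1.00). Over all exon IDs tested for usage 13.3% were called. At exon level 28 member exon IDs were tested, 6 higher and 13 lower, beside 26.2% and 27.3% of all exon IDs tested.

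Other H2B genes were also lower. Hist1h2bh was at 24.8, 20.8, 13.4 and 29.3 CPM in controls and 7.31, 8.29, 6.45 and 9.55 CPM in cKO, and fell by 1.48 (SE 0.25, adjusted p 0.000130). Hist3h2ba was at 22.6, 48.8, 36.3 and 23.5 CPM in controls and 7.31, 8.07, 9.46 and 11.8 CPM in cKO, and fell by 1.83 (SE 0.26, adjusted p 3.59e-05). In both genes the groups were clear of each other, although the controls spread widely. Hist1h2bk was at 47.5, 29.7, 25.3 and 55.0 CPM in controls and 19.5, 25.1, 13.5 and 23.2 CPM in cKO, and fell by 0.95 (SE 0.26, adjusted p 0.00550). Here control replicate 3 lay just above cKO replicate 2. Hist1h2bj gave 0.17 (SE 0.19) and did not pass.

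Hist1h2ba, which encodes TH2B, the H2B partner of TH2A, was the 1 H2B gene higher in cKO oocytes. It was at 8.87, 4.55, 6.31 and 6.50 CPM in controls and at 25.0, 15.3, 19.1 and 11.0 CPM in cKO. All cKO libraries lay above all controls, and the gene rose by 1.41 (SE 0.28, adjusted p 0.000532, 109 against 333 counts). The summed H2B level without Hist1h2bc was 116 ± 13.3 CPM in controls and 73.6 ± 4.98 CPM in cKO (SD, n = 4).

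**Figure D2:**
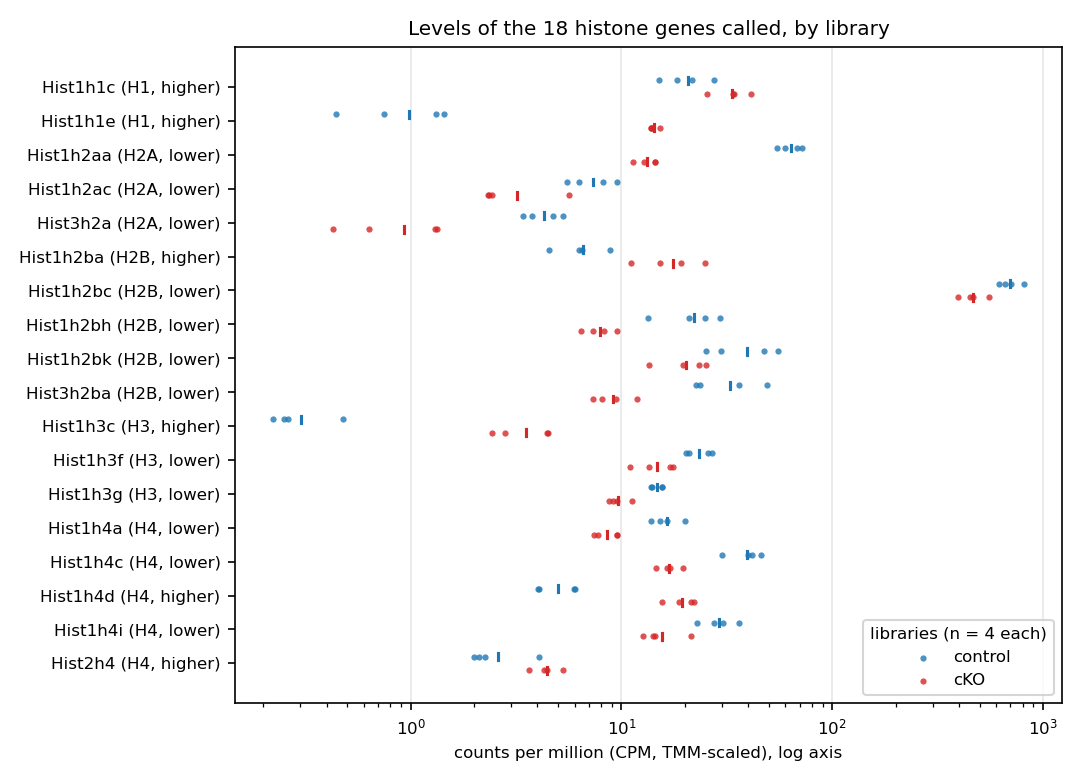
Level of each of the 18 called members in every library (CPM scaled by TMM, log axis), controls in blue and cKO in red, with a short bar at each group mean. Hist1h1e, Hist1h3c, Hist1h4d and Hist1h2ba have every cKO library above every control library. Hist1h2bc lies far to the right of the other members in both groups.

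H3 and H4 form the tetramer at the centre of the nucleosome, and both classes held genes in each direction. Of 6 H3 genes tested 1 was higher and 2 were lower, beside 27.0% and 27.9% of all genes tested. Hist1h3c was at 0.222, 0.479, 0.263 and 0.250 CPM in controls, from 5 counts in all, and at 4.43, 4.46, 2.79 and 2.43 CPM in cKO, from 67 counts. The controls were close to 0 and all cKO libraries lay above them, and the gene rose by 3.42 on the log2 scale (adjusted p 2.22e-05, SE 0.47). Hist1h3c passed the filter only through the cKO libraries. Its coding sequence is 98.5% identical to that of Hist1h3b, so reads within it may not be assigned to 1 copy.

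Hist1h3f was at 20.8, 20.3, 26.8 and 25.8 CPM in controls and 17.1, 17.6, 11.0 and 13.5 CPM in cKO, and fell by 0.66 (SE 0.20, adjusted p 0.0115). Hist1h3g was at 15.5, 13.9, 15.5 and 14.0 CPM in controls and 9.08, 8.71, 11.2 and 9.55 CPM in cKO, and fell by 0.61 (SE 0.19, adjusted p 0.0121). Neither gene's groups overlapped, but without the filter on low counts Hist1h3g missed the threshold (adjusted p 0.0516). Hist1h3a (0.50), Hist1h3e (-0.33) and Hist2h3c2 (0.27) were not called. The H3 sum was 49.7 ± 4.92 CPM in controls and 42.6 ± 3.75 CPM in cKO (SD, n = 4), and the groups overlapped.

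Of 7 H4 genes tested 2 were higher and 3 were lower, beside 27.0% and 27.9% of all genes tested. Hist1h4d was at 5.99, 4.07, 6.05 and 4.00 CPM in controls and at 18.8, 15.5, 21.3 and 22.1 CPM in cKO, with no overlap. It rose by 1.94 (SE 0.23, adjusted p 4.79e-06). It lies at chr13:23581598-23582735 on the plus strand, in 1 exon whose annotation runs 770 bases past the stem-loop motif. Its closest member by coding sequence, Hist1h4j, is 94.2% identical.

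Hist1h4c was at 46.1, 29.9, 41.6 and 40.0 CPM in controls and 16.4, 19.5, 14.6 and 17.0 CPM in cKO, and fell by 1.22 (SE 0.18, adjusted p 4.99e-05). Hist1h4i was at 35.9, 22.7, 27.6 and 30.3 CPM in controls and 14.2, 14.4, 12.7 and 21.3 CPM in cKO, and fell by 0.89 (SE 0.21, adjusted p 0.00221). Hist1h4a was at 20.0, 13.9, 15.3 and 16.5 CPM in controls and 9.53, 7.44, 7.74 and 9.55 CPM in cKO, and fell by 0.94 (SE 0.20, adjusted p 0.00114). In these 3 genes all controls stood above all cKO libraries. They and Hist1h4d encode the same histone from separate copies.

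Hist1h4h, the most abundant H4 member, was at 66.3, 59.1, 37.6 and 67.8 CPM in controls and 42.3, 37.2, 36.8 and 53.4 CPM in cKO. Control replicate 3 lay within the cKO range, and the log2 fold change of -0.44 (SE 0.20) missed the threshold (adjusted p 0.0702). Without control replicate 3 it passed (adjusted p 0.00760), and without cKO replicate 4 as well (adjusted p 0.0391). Hist2h4 was at 2.00, 4.07, 2.10 and 2.25 CPM in controls and 4.43, 5.31, 3.65 and 4.31 CPM in cKO, a difference of 0.76 in log2 (adjusted p 0.0460, SE 0.30). That call was lost when any 1 library other than control replicate 2 was left out (adjusted p up to 0.142). Hist2h4 passed the filter only through the cKO libraries. Hist4h4 gave -0.11 (SE 0.27) and was not called. The H4 sum was 164.4 ± 25.8 CPM in controls and 121.4 ± 13.0 CPM in cKO (SD, n = 4), from 140.7 to 193.2 and from 107.5 to 138.6, without overlap.

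The summed level of all 67 members was 1161 ± 119 CPM in controls and 806 ± 89.8 CPM in cKO (SD, n = 4), a ratio of 0.694. Without Hist1h2bc it was 460.9 ± 37.6 and 340.7 ± 26.7 CPM, a ratio of 0.739. On CPM of the unscaled library sizes the ratio over all members was 0.773, H1 stood at 1.71, H2A at 0.332, H2B at 0.735, H3 at 0.956 and H4 at 0.822. Each class kept its side of 1 on both scales, but on unscaled sizes the groups overlapped for H2B (638.0 to 883.0 CPM in controls, 490.5 to 661.1 in cKO), for H4 (125.2 to 182.4 and 113.9 to 146.5) and for all members (931.0 to 1240 and 746.1 to 971.4). These sums have no test, since the members were chosen with results known.

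**Figure D3:**
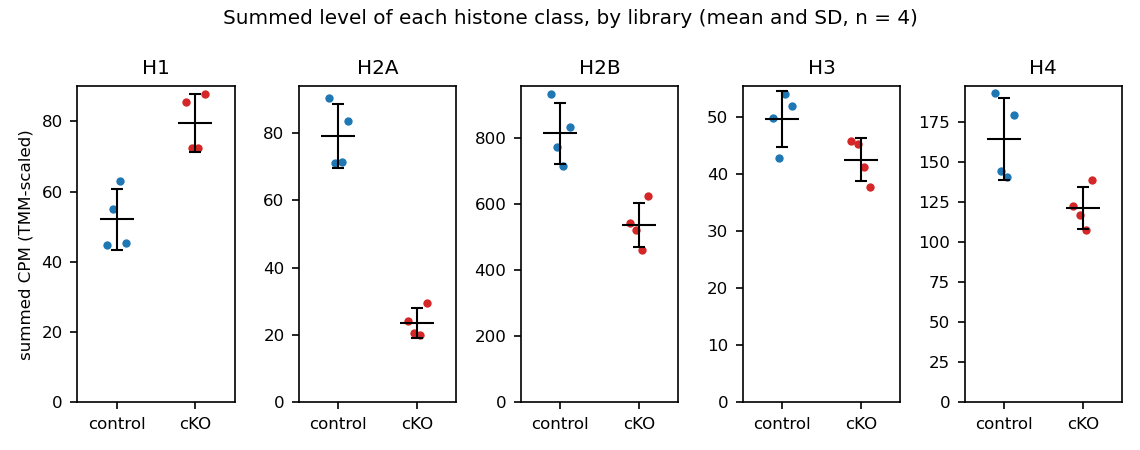
Summed CPM (TMM-scaled, y axis from 0) of the members of each histone class in each library, 4 controls in blue and 4 cKO in red, with the mean and SD in black. The H1 sums of the cKO libraries lie above the controls, the H2A, H2B and H4 sums lie below them, and the H3 sums overlap; on unscaled library sizes the H2B and H4 sums overlap too.

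Levels between genes were compared per kilobase of own bases. On that scale Hist1h2bc led with 605 ± 73.4 CPM per kb in controls and 402 ± 56.1 in cKO (SD, n = 4). Hist1h2aa came next in controls at 244 ± 29.9 CPM per kb and stood at 50.7 ± 5.59 in cKO. Hist1h4h followed with 123 ± 29.6 and 90.2 ± 16.4, and Hist1h2bk with 82.7 ± 29.8 and 42.7 ± 10.7, and the spreads of these 2 met in controls. Hist1h2ba was at 17.1 ± 4.62 CPM per kb in controls and 45.9 ± 15.5 in cKO, so its cKO level and that of Hist1h2aa differed by less than their spread.

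Hist1h2ba and Hist1h2aa lie head to head, 305 bases apart (chr13:23934157-23934461), and are transcribed away from each other. Histone H2A and H2B genes are often paired in this way and share the promoter between them. The log2 ratio of Hist1h2aa to Hist1h2ba CPM was 3.01, 3.58, 3.24 and 3.39 in the controls and -0.80, -0.26, -0.75 and 0.38 in the cKO libraries. In CPM not divided by own bases, Hist1h2aa was the higher of the 2 in every control library and in 1 of the 4 cKO libraries. The mean of the ratio was 3.31 ± 0.242 in controls and -0.36 ± 0.549 in cKO (SD, n = 4). Per kilobase of own bases the log2 ratio was 3.87 ± 0.242 in controls and 0.20 ± 0.549 in cKO (SD, n = 4). In the cKO libraries that ratio was -0.24, 0.29, -0.19 and 0.94, so neither gene was the higher in all of them. Both genes are annotated here only over their coding sequence, with no bases after the stop codon.

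The region between the 2 genes is printed because its members moved apart. It is the 250 bases before the RefSeq start of Hist1h2aa (named H2ac1 there) on GRCm38.p6, plus strand, with the TATA box TATAAA, the CCAAT box CCAAT and the octamer ATTTGCAT of either strand in capitals.
Hist1h2aa promoter, chr13:23934187-23934436: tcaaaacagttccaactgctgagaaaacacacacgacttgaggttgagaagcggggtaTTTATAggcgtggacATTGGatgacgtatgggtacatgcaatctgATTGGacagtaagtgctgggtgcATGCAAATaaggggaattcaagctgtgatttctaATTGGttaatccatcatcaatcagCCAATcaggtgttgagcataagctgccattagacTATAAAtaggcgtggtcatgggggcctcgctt
A TATA box lies 32 bases before the Hist1h2aa start on its strand. A second lies 192 bases before that start on the strand of Hist1h2ba. Between them lie 4 CCAAT boxes, 1 on the strand of Hist1h2aa and the others on the strand of Hist1h2ba, and 1 octamer. None of these 3 motifs overlaps another in this window.

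Promoters of 61 members were in the RefSeq table, each searched on both strands over the 250 bases before the start. TATAAA occurred in 47.5% of them and in 12.4% of all 32851 promoters of the table. CCAAT occurred in 82.0% against 33.8%, at every H1, H2A and H2B gene matched and at 3 of 12 H4 genes. The octamer ATTTGCAT, known from H2B promoters, occurred in 23.0% against 1.60%, namely at 7 of 17 H2A and 7 of 16 H2B genes and at no H1, H3 or H4 gene. Hist1h2be has 2 promoters in the table, 1 of them with the octamer, and a gene was counted if any of its promoters held the motif. A match describes these letters and is not a site shown to be bound.

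Another 12 pairs of members start within 1000 bases of each other in the same arrangement, and in 3 of these both genes were tested. Hist1h2ac and Hist1h2bc, 250 bases apart, were both lower (-1.19 and -0.59). Hist1h2bh and Hist1h3f, 659 bases apart, were both lower (-1.48 and -0.66). Hist1h2ag and Hist1h2bj, 269 bases apart, were both not called (0.65 and 0.17). Of the 4 pairs with both genes tested, the pair of Hist1h2ba and Hist1h2aa was the 1 with calls in opposite directions.

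**Figure D4:**
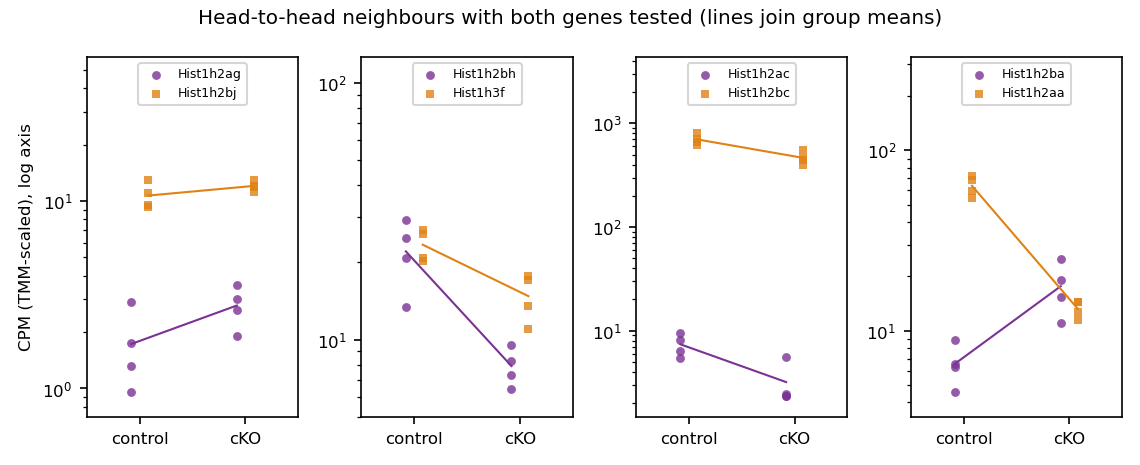
CPM (TMM-scaled, log axis) of both genes of each head-to-head pair with both genes tested, in the 4 control and 4 cKO libraries; lines join the group means. In the pair of Hist1h2ba and Hist1h2aa the lines cross, and in the other pairs both lines slope the same way. The CPM shown are not divided by own bases. Per kilobase of own bases the mean of Hist1h2aa stayed above that of Hist1h2ba in cKO (50.7 against 45.9 CPM per kb).

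By position, the members on chromosome 13 fall into 4 blocks separated by more than 100 kb. Beside the block counts below, 27.0% of all genes tested were higher and 27.9% lower. The block at chr13:23531050-23764406 holds 29 members, 16 of them tested, with 4 higher and 7 lower. The block at chr13:22035164-22043676 holds 5 members, 4 tested, with none higher and 2 lower. The block at chr13:21715763-21837530 holds 18 members, none of which had enough counts to be tested. The pair Hist3h2a and Hist3h2ba on chromosome 11 was lower in both genes. On chromosome 3, 2 of 10 members were tested and 1, Hist2h4, was higher.

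The 18 members of the untested block summed to 18, 11, 13 and 15 counts in the control libraries and to 48, 52, 40 and 73 counts in the cKO libraries. Every cKO sum was above every control sum, at 3.45 ± 0.593 CPM in controls and 11.0 ± 2.08 CPM in cKO (SD, n = 4). Of the 16 members of the block with counts, 15 had more raw counts in cKO. Raw counts are not scaled to library size, and equal counts in both groups give a scaled ratio of 0.858. Most cKO counts of the block came from Hist1h2bm (19 and 58 counts), Hist1h3h (3 and 30), Hist1h2bl (1 and 26) and Hist1h1b (7 and 24). Several other members had very few counts, such as Hist1h2an (0 and 1) and Hist1h4k (1 and 2). No share of all low-count genes is set beside this number. The block was set by position alone, and its sum has no test. Near-identical copies are common across the family: all 12 H3, 12 of 18 H2A, 10 of 18 H2B, 4 of 13 H4 and no H1 members have another member at least 98% identical in coding sequence, and reads from such copies may be lost or shared. The H1 genes differ most, with a median pairwise identity of 70.6%.

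In all, 31 members had counts but were not tested. The largest was Hist1h2bm, an H2B gene, with 19 counts in controls and 58 in cKO, a ratio per library size of 2.62 (95% exact interval 1.54 to 4.66, counting error only). Hist1h3h, an H3 gene, had 3 and 30 counts (ratio 8.58, interval 2.67 to 43.9), and Hist1h2bl, an H2B gene, had 1 and 26 (ratio 22.3, interval 3.67 to 914.7). In these 3 genes every cKO library lay above every control library. All 3 lie in the untested block described above, so their counts are part of its sum. With no filter on low counts all 3 were called higher, the only calls among the 31, and none of the 31 was called lower. That fit called 3921 of 29551 genes higher and 3748 lower. By counting error alone the interval of the ratio lay above 1 in 5 of the 31. These were the 3 genes above, Hist1h1b and Hist1h2ai, all in the untested block. The interval lay below 1 in 2, the H2B genes Hist1h2bf (17 and 6 counts, 0.0978 to 0.805) and Hist1h2be (16 and 7 counts, 0.131 to 0.964). The rest had at most 27 counts over all libraries. Such intervals were not taken over all genes, so the numbers of intervals have no overall share beside them.

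The replication-independent histones, most of which are made outside S phase from polyadenylated mRNA, were read from a list of 18 genes, 9 of them tested. Of these 2 were higher and 1 was lower, with a median log2 fold change of 0.35. Over all genes tested 27.0% were higher and 27.9% lower, with a median of 0.02. H1f0, the gene of the linker histone H1.0, was at 247 ± 55.3 CPM in controls and 442 ± 37.9 CPM in cKO (SD, n = 4). It rose by 0.84 in log2 (adjusted p 0.000386). In CPM not divided by own bases, it was above the sum of the 6 H1 members in both groups. Stem-loop-ended mRNA of those members is not counted, so this is no ranking of their total mRNA. H2afy, a macroH2A gene, rose by 1.26 (adjusted p 0.00770). H2afj, an H2A variant gene, fell by 2.11 (adjusted p 0.000130). The variant gene H2afx was at 415 ± 205 and 283 ± 31.0 CPM and did not pass (adjusted p 0.0964). H2afz, H2afb2 and H1fnt had no counts, which for genes with overlapping exon IDs is no measure of expression.

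Genes that transcribe, cleave or degrade histone mRNA were read from a list of 30, with 28 found by symbol and 17 tested, of which 5 were higher and 5 were lower (median 0.00), shares near those of all genes tested. Npat, the coactivator of histone gene transcription, was at 40.8, 46.9, 58.4 and 51.3 CPM in controls and at 129.2, 158.5, 171.8 and 120.0 CPM in cKO. It rose by 1.55 without overlap (SE 0.16, adjusted p 1.71e-06). Cpsf2, a subunit of the cleavage machinery, rose by 0.57 (adjusted p 0.00221), and Ncbp1, a subunit of the cap-binding complex, by 1.36 (adjusted p 0.00320).

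Lsm11, a component of the U7 particle, was at 45.6 ± 4.80 CPM in controls and 30.4 ± 1.68 CPM in cKO (SD, n = 4) and fell by 0.59 (adjusted p 0.00429). Upf1, a helicase needed for histone mRNA decay, fell by 0.48 (adjusted p 0.00583), and Cdc73, a subunit of the PAF1 complex, by 1.00 (adjusted p 0.00151). Slbp, named after its values were seen because its product binds the stem-loops printed above, was at 28.6, 27.0, 24.7 and 30.0 CPM in controls and 21.3, 16.8, 13.3 and 18.3 CPM in cKO. All cKO libraries were below the controls, and it fell by 0.66 (SE 0.18, adjusted p 0.00666).

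Histone chaperones, which carry histones to the nucleus and onto DNA, were read from a list of 29, with 21 tested, 1 higher and 8 lower (median -0.28), beside 27.0% and 27.9% of all genes tested. Tspyl1, a member of the nucleosome assembly protein family, was at 1023 ± 145 CPM in controls and 212 ± 33.3 CPM in cKO (SD, n = 4) and fell by 2.27 (adjusted p 2.48e-08). Ubn2, a subunit of the HIRA complex, fell by 1.40 (adjusted p 1.30e-06), Npm3, a nucleoplasmin relative, by 0.91 (adjusted p 0.00225), and Asf1b, a chaperone of H3 and H4, by 0.44 (adjusted p 0.00288). Ipo9, an importin for histones, fell by 0.73 (adjusted p 0.00313). Npm1, the gene of nucleophosmin, was the 1 chaperone gene higher, at 0.92 (adjusted p 0.000815).

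Of 32 genes of DNA replication and S phase 19 were tested, with 8 higher and 1 lower (median 0.43), beside 27.0% and 27.9% of all genes tested. Ccne1, the gene of cyclin E1, rose by 1.95 (adjusted p 9.77e-05), E2f2, an activator of S-phase genes, by 0.81 (adjusted p 0.000862), and Rrm2, a ribonucleotide reductase subunit, by 0.60 (adjusted p 0.00101). Pola1, the catalytic subunit of DNA polymerase alpha, rose by 0.59 (adjusted p 0.00315), and Ung, a uracil DNA glycosylase, by 1.22 (adjusted p 0.00334). Mki67, a marker of proliferating cells, fell by 0.57 (adjusted p 0.00113). A list of 8 markers of cycling cells summed to 419 to 482 CPM in controls and 467 to 520 CPM in cKO, with 2 higher and 1 lower of 6 tested. The part of dividing cells in the histone values was not tested.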

How the data were processed

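Raw counts per exon ID were deposited by the authors, 1 file per library. The submitters' processing notes list STAR, HTSeq and mm10 without versions; counting options are not stated in the sources used here. Per the labels' protocols, RNA was primed with oligo-dT, copied with template switching and tagmented, and read as 150 bp pairs. Strand is not stated to be kept. The 5 summary rows of each file stayed out of library sizes. Exon IDs were matched to GENCODE M21, versions ignored: 494230 of 496288 matched, and the rest held 0.252% of counts. Counts were summed per gene.

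Genes were filtered with filterByExpr (minimum count 10). After TMM scaling, the quasi-likelihood test in edgeR 4.0.16 (R 4.3.3) was run as a two-sided test with group as its single term and Benjamini-Hochberg adjustment over all genes. The standard error is the log2 fold change over the root of F. Exon IDs were tested in the same way, and exon usage with diffSpliceDGE. CPM are TMM-scaled unless said otherwise. Sequences were read from GENCODE transcripts and RefSeq promoters with Biopython 1.88. DESeq2 1.42.0 was an alternative. The study's text speaks of 4 separate experiments, but no label assigns a library to one, so p-values reflect the spread among the 8 libraries, part of which may be technical. No 2 libraries agreed within sampling noise.

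The fit was tested on simulated counts with 200 genes changed. At gene level it called 15.4%, 63.6% and 100% of the 65, 66 and 65 genes changed 1.5-, 2- and 4-fold, among 10368 tested. In the data 2883 genes were called higher and 2973 lower. The Benjamini-Hochberg adjustment depends on how many genes change, so these percentages are not detection rates for the data. The members and lists were chosen with earlier results of these data known. Tested members could be named, and library values are given for called members without overlap and for the 3 most abundant of a class, plus other members of interest. From each list up to 6 tested genes of smallest p were named. Also tried were other scalings and filters, protein-coding genes only, exons free of other genes, a replicate block and leaving out each library.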

Additional observations from a re-analysis of the deposited data

Results flagged for a closer look

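Among the 68 groups of 4 libraries checked, 4 held a library far from the other 3, where chance gives about 1 in 20. Hist1h1e was at 15.3 CPM in cKO replicate 3 and at 13.8 to 14.0 CPM in the other cKO libraries. Hist1h2ac was at 5.62 CPM in cKO replicate 4 and at 2.34 to 2.44 CPM in the others. Hist1h3c was at 0.479 CPM in control replicate 2 and at 0.222 to 0.263 CPM in the other controls. Hist2h4 was at 4.07 CPM in control replicate 2 and at 2.00 to 2.25 CPM in the other controls.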

How the results depend on the processing

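Under 16 other settings of the gene-level fit, 5 of the 6 members called higher and 11 of the 12 called lower kept their calls wherever they were tested; of these, 3 and 8 were tested in every setting. With exons that overlap another gene left out, Hist1h1e and the 4 H2A genes were not tested, so 1 H1 gene was higher and 0 H2A genes were lower, with 5 members higher and 9 lower in all. Hist2h4 lost its call in 10 of the 15 settings that tested it (adjusted p 0.0108 to 0.142), and Hist1h3g without a filter (adjusted p 0.0516). Hist1h4h passed in 4 settings (adjusted p 0.00760 to 0.179 over all 16). Leaving out 1 library at a time gave 5 to 7 members higher and 12 to 13 lower, 2602 to 3068 genes higher and 2764 to 3018 lower, and a log2 fold change of Virma from -1.92 to -1.72. With 1 library left out, Hist1h1a ranged from -0.23 to 0.15 and Hist4h4 from -0.24 to 0.021. Hist1h1a was at 0.15 without control replicate 3, and Hist4h4 at 0.0033, 0.021, 0.0059 and 0.0092 without control replicate 1, control replicate 4, cKO replicate 3 and cKO replicate 4; neither gene was called in any of these.

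Libraries of the same number deviated together weakly or not at all (correlations of 0.104, -0.052, 0.100 and 0.062). The best match of control replicates 1 and 3 was the cKO library of the same number, and that of replicates 2 and 4 was not. With 4 libraries per group, these values cannot settle whether the numbers pair the libraries. A fit with the replicate number as a block called 2885 genes higher and 2908 lower, and 6 members higher and 13 lower. The depth limits what could be read: 31 of the 67 members had counts, but too few for the test.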
